A study of Mus musculus with 2 samples.

Results

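The miR-15/16 family, with the related miR-195, miR-497, miR-322 and miR-503, was examined in microvesicles (MVs) released by mouse mesenchymal stem cells (MSCs). Of the 831 mouse miRNAs with a deposited value, 13 belonged to this family. They were found by name, as every array entry for miR-15a, miR-15b, miR-16, miR-195, miR-322, miR-497 or miR-503, whichever arm of the hairpin it measured. The study asked whether erythropoietin (EPO), the hormone that drives red cell formation, alters the miRNA content of MSC-derived MVs that might protect the kidney. EPO-MVs came from MSCs cultured for 48 h with 100 IU/ml EPO and MSC-MVs from MSCs cultured for 48 h without it, and each was measured on 1 miRCURY LNA Array, whose capture probes carry locked nucleic acids that bind short RNAs tightly. The MSCs were bone marrow cells of 4-week-old male C57BL/6 mice, and both media held fetal bovine serum. The MVs were collected by ultracentrifugation of the cleared supernatant, and the design text names the culture supernatant where the sample titles name MVs. No replicate array was analysed, so no difference below has a replicate check, no test was run, and EPO and the array itself cannot be told apart. The number of animals behind each array is not given in the sources used here.

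A miRNA recognizes its targets mainly through its seed, the bases near its 5′ end that pair with messenger RNAs. The family is known as a brake on the cell cycle, because its members repress cyclins D and E, the kinase CDK6 and the phosphatase CDC25A, which carry cells from G1 into S phase, and the survival protein BCL2. MiR-15a and miR-16 are known as tumour suppressors that are lost in chronic lymphocytic leukaemia, and miR-195 and miR-497 are known for repressing cell cycle genes as heart muscle cells stop dividing after birth. MiR-322 and miR-503 are induced when myoblasts leave the cell cycle.

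The mature sequences of all 13 entries were matched in RefSeq (GRCm38.p6), where the entry miR-497-5p carries the name miR-497a-5p. The 7 entries for 5p arms are shown first, because they share the seed on which the family is defined. Capitals mark the seed, bases 2 to 8 from the 5′ end.
mmu-miR-15a-5p: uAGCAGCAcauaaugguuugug
mmu-miR-15b-5p: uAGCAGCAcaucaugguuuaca
mmu-miR-16-5p: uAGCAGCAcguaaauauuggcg
mmu-miR-195a-5p: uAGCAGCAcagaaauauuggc
mmu-miR-497-5p: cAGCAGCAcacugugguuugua
mmu-miR-322-5p: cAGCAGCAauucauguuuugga
mmu-miR-503-5p: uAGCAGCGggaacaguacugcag
The first 6 had one and the same seed, AGCAGCA. Counted from the 5′ end of miR-15a-5p, miR-503-5p differed within the first 8 bases by A8G, so that it shared bases 2 to 7 but not base 8, and miR-322-5p and miR-497-5p differed by U1C, outside the seed. These 7 were the only ones of the 681 array entries with a RefSeq sequence by name that had AGCAGC at bases 2 to 7 (1.03%).

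Beyond the seed the sequences diverged to different degrees. Over the 21 bases that all 7 have, miR-16-5p and miR-195a-5p differed at 2 bases and miR-15a-5p and miR-15b-5p at 3, whereas miR-497-5p and miR-503-5p differed at 12. Probes for such close sequences can capture each other's target, and the part of this in the values below was not tested.

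The genes of the family lie in pairs. On chromosome 14, miR-15a-5p (chr14:61632075-61632096, minus strand, GRCm38.p6) and miR-16-5p from Mir16-1 (chr14:61631936-61631957, minus strand) lie within the long non-coding RNA gene Dleu2. On chromosome 3, miR-15b-5p (chr3:69009775-69009796, plus strand) and the second copy of miR-16-5p, from Mir16-2 (chr3:69009918-69009939, plus strand), lie within Smc4, which encodes a subunit of the condensin complex. On chromosome 11, miR-497a-5p (chr11:70234730-70234751, plus strand) and miR-195a-5p (chr11:70235062-70235082, plus strand) start 332 bases apart. No gene of the RefSeq table was found to span them, in a search that left out genes whose names start with Mir. On the X chromosome, miR-322-5p (chrX:53054306-53054327, minus strand) and miR-503-5p (chrX:53054027-53054049, minus strand) lie within the non-coding gene C430049B03Rik. The deposited values themselves name no genome build.

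MiR-16-5p has 2 genes and is a single entry, while each of its hairpins gives a 3p arm with an entry of its own. Both hairpins are shown because the array separates them by that arm. Capitals mark the 5p arm and then the 3p arm.
Mir16-1: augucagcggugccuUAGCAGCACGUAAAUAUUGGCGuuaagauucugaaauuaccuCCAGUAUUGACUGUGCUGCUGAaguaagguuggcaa
Mir16-2: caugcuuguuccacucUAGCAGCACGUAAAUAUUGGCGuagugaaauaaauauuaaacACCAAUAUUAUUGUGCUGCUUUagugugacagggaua
The 5p arms of the hairpins are identical, so the intensity of miR-16-5p cannot be divided between chromosomes 14 and 3.

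The other 6 entries are opposite (3p) arms. In capitals is GCUGC, the stretch that is complementary to bases 3 to 7 of the 5p arms and that lies across from the seed in the hairpin.
mmu-miR-15a-3p: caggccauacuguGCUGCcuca
mmu-miR-15b-3p: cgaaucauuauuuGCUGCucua
mmu-miR-16-1-3p: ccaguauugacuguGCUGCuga
mmu-miR-16-2-3p: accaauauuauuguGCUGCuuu
mmu-miR-195a-3p: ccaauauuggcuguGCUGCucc
mmu-miR-503-3p: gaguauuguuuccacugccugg
Of these 6 sequences, 5 held GCUGC, starting at base 14 or 15, and miR-503-3p did not. Searched on the RNA strand alone, GCUGC was present anywhere in 21 of the 681 sequences (3.08%).

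The deposited value is a normalized intensity on a linear scale with no unit. The values came in whole steps, with 471 steps to an intensity of 1 on the array of EPO-MVs and 447 on that of MSC-MVs, which shows how finely dim entries were resolved. The intensity of an entry also depends on its probe, so intensities are compared between arrays and not between entries. Each entry's EPO-MV value was divided by its MSC-MV value to give a ratio, and entries at 1.5 or above, or at its inverse (0.667) or below, were counted as past the threshold, as in the fold change filtering of the study's methods.

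In EPO-MVs, all 6 entries with the seed AGCAGCA were lower than in MSC-MVs, with ratios from 0.554 to 0.929, and 3 of them, miR-16-5p, miR-322-5p and miR-497-5p, were lower by more than 1.5-fold. Over all 831 miRNAs, 7.58% were lower by at least 1.5-fold, 17.8% were higher and 25.4% passed in either direction. MiR-503-5p, the member with another base at position 8, was higher in EPO-MVs, with a ratio of 1.24. Of all 7 entries with AGCAGC at bases 2 to 7, 6 were thus below 1, as were 365 of all 831 miRNAs. In the brightest 208 miRNAs by mean log2 intensity, 131 were below 1. The median log2 ratio of the 7 seed-bearing 5p arms was -0.56, against 0.05 for all 831 miRNAs. Of all 13 members, 4 passed 1.5-fold in either direction, 3 lower and 1 higher.

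**Figure D1:**
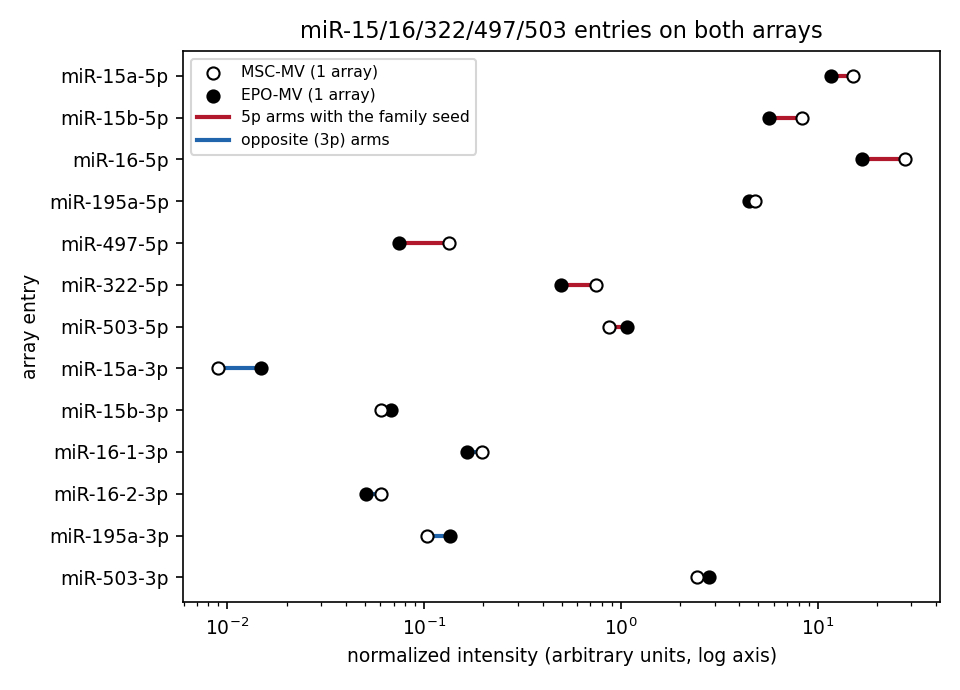
Normalized intensity (arbitrary units, log axis) of the 13 family entries, with open circles for the MSC-MV array, filled circles for the EPO-MV array and a line between them (red, 5p arms with the family seed; blue, opposite arms). For 6 of the 7 red lines the filled circle lies to the left, with miR-16-5p at 16.9 against 27.9, and for miR-503-5p it lies to the right, at 1.07 against 0.866.

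MiR-16-5p (mmu-miR-16-5p) is abundant in many tissues and in red blood cells and is often used as a reference miRNA. Its intensity was 16.9 on the array of EPO-MVs against 27.9 on that of MSC-MVs. Its ratio was 0.605, so that it was 1.65-fold higher in MSC-MVs. When the miRNAs were divided by mean log2 intensity into 4 groups, the brightest 208 had a median log2 ratio of -0.09, and 16 of them (7.69%) were lower in EPO-MVs by at least 1.5-fold. Within this group, the ratio of miR-16-5p was at place 8 from the lowest.

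MiR-15a-5p (mmu-miR-15a-5p), the neighbour of miR-16 on chromosome 14, had an intensity of 11.7 with EPO and 15.1 without, a ratio of 0.780 that did not pass 1.5-fold. MiR-15b-5p (mmu-miR-15b-5p), the neighbour of the other miR-16 gene on chromosome 3, had 5.68 and 8.34. Its ratio of 0.681 lay just outside the threshold of 0.667, while the 0.661 of miR-322-5p lay just inside it, so these 2 ratios on opposite sides of the threshold were nearly equal. In the brightest group, miR-15b-5p was at place 18 and miR-15a-5p at place 45 of 208 from the lowest ratio.

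MiR-195a-5p, whose sequence is closest to miR-16-5p, had an intensity of 4.47 with EPO and 4.81 without. Its ratio of 0.929 was the nearest to 1 in the family and stood at place 100 of 208 in its group, close to the middle. MiR-497-5p, from the same chromosome 11 pair, had 0.0743 with EPO and 0.134 without, which are 35 and 60 steps. Its ratio of 0.554 was the lowest of the family, and a shift of 0.5 steps on each array would place it between 0.541 and 0.566, a range that covers only the grain of the values. The pair therefore held both the smallest and the largest difference among the 6 entries with the same seed. In the intensity group of miR-497-5p, the second dimmest, 7 of 208 miRNAs (3.37%) were lower by at least 1.5-fold, and its ratio was at place 5 from the lowest.

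On the X chromosome, miR-322-5p, the mouse counterpart of human miR-424, and miR-503-5p start 278 bases apart and stood on opposite sides of 1. MiR-322-5p had an intensity of 0.497 with EPO and 0.752 without, a ratio of 0.661. MiR-503-5p had 1.07 and 0.866, a ratio of 1.24, and the other arm of its hairpin, miR-503-3p, had 2.82 and 2.43, a ratio of 1.16. Both arms of the miR-503 hairpin were thus higher in EPO-MVs, and neither passed 1.5-fold. Both 5p entries fell into the second brightest group of 207 miRNAs, where 9 (4.35%) were lower and 11 (5.31%) were higher by at least 1.5-fold. There the ratio of miR-322-5p was at place 9 from the lowest and that of miR-503-5p at place 41 from the highest.

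Further miRNAs are encoded beside miR-322 and miR-503 on the X chromosome, namely miR-351, miR-542, miR-450a and miR-450b, with 7 entries on the arrays. Of these, 1 passed 1.5-fold, 5 were above 1 and 2 below it. Over all 831 miRNAs, 25.4% passed 1.5-fold and 466 were above 1. After quantile normalization and after lowess 3 of the 7 entries were below 1 and 0 passed 1.5-fold, and 0 of them passed with the pseudocount. MiR-351-5p had an intensity of 0.807 with EPO and 0.577 without (ratio 1.40). MiR-542-5p had 1.19 and 0.870 (ratio 1.37), and miR-542-3p had 3.35 and 3.15 (ratio 1.06). Among these neighbours no ratio was as low as that of miR-322-5p, and the lowest was the 0.907 of miR-450a-1-3p. The 1 entry past the threshold, miR-450a-2-3p, had 12 steps with EPO and 7 without (ratio 1.63). It lies in the dimmest group, where 46.2% of 208 miRNAs were higher by at least 1.5-fold.

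The 3p arms of the family were mixed in direction. Of the 6 entries, 4 were above 1 and 2 below it, with a median log2 ratio of 0.19. Their median was -0.07 after lowess. Only miR-15a-3p passed 1.5-fold, with an intensity of 0.0149 with EPO and 0.00895 without (ratio 1.66). These are 7 and 4 steps, and 0.5 steps on each array span ratios from 1.37 to 2.03, on both sides of the threshold. It lay in the dimmest group, where 46.2% of 208 miRNAs were higher by at least 1.5-fold.

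The 3p arms of both miR-16 hairpins were close to each other in ratio. MiR-16-1-3p, from chromosome 14, had an intensity of 0.166 with EPO and 0.197 without (ratio 0.841). MiR-16-2-3p, from chromosome 3, had 0.0510 and 0.0604 (ratio 0.844), which are 24 and 27 steps. Both were below 1, as was the 5p arm they share, at 0.605. MiR-15b-3p had 0.0679 and 0.0604 (ratio 1.12), and miR-195a-3p had 0.136 and 0.103 (ratio 1.32).

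When the arms of 1 hairpin were set side by side, the 5p arm had the lower ratio in 5 of 6 pairs, with miR-16-5p counted once with each of its 3p arms. The log2 ratio of the 5p arm was below that of the 3p arm by 1.09 for miR-15a, 0.72 for miR-15b and 0.51 for miR-195a. For miR-16 it was below by 0.47 against miR-16-1-3p and by 0.48 against miR-16-2-3p. For miR-503 it was above, by 0.10. After quantile normalization and after lowess, the 5p arm had the lower ratio in 4 of 6. The gap of miR-15a (5p minus 3p), -1.09 as deposited, was then -0.20 and -0.13, and that of miR-15b, -0.72 as deposited, was -0.31 in both settings and the widest of the 6. For miR-16 against miR-16-2-3p the gap turned to 0.13 and 0.01 in these settings. Against miR-16-1-3p it was -0.06 and -0.17, and for miR-195a it was -0.11 and -0.21. With the pseudocount described below the gaps were -0.48 for miR-15a and -0.64 for miR-15b. In 2 of the 6 pairs both arms had at least 60 steps on both arrays. Among all miRNAs the median log2 ratio was 0.49 for the dimmest of the 4 intensity groups and -0.09 for the brightest.

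**Figure D2:**
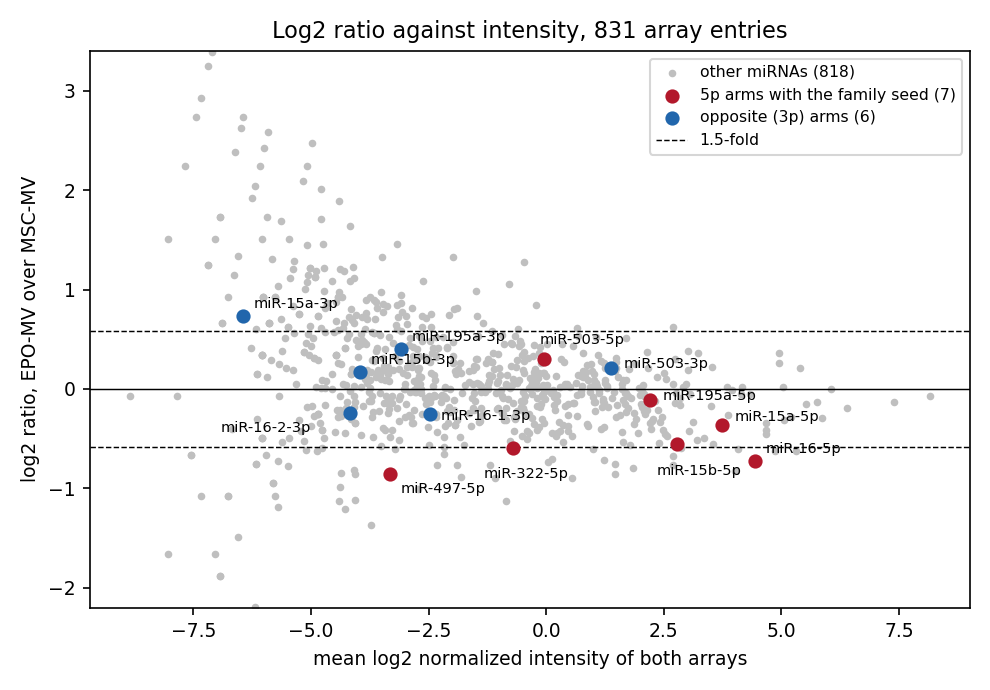
Log2 ratio of EPO-MV to MSC-MV against the mean log2 intensity of both arrays for all 831 entries, with the 7 seed-bearing 5p arms in red, the 6 opposite arms in blue, the other 818 miRNAs in grey and dashed lines at 1.5-fold; 11 grey entries lie outside the plotted range. The red points other than miR-503-5p lie below 0 from dim to bright intensity, with miR-16-5p at -0.72, miR-497-5p at -0.85 and miR-322-5p at -0.60 below the lower dashed line.

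The ratios were recomputed under 5 other scalings of the arrays. Of these, 3 (the re-centrings on all or on the brighter miRNAs and the percentile scaling) each multiply all ratios by a constant. They can move an entry across a threshold but leave the order of the ratios unchanged. Of the 5, only quantile normalization and lowess can change the gaps between entries. MiR-497-5p stayed below the threshold in all 5 scalings, with ratios from 0.477 to 0.574. MiR-16-5p stayed below it in 3 of the 5, at 0.585 to 0.628, and was at 0.754 after quantile normalization and 0.696 after removal of the trend of the ratio with intensity by lowess. MiR-322-5p stayed below it in 3 of the 5, and its whole range was narrow, from 0.638 to 0.686. MiR-15b-5p passed the threshold in 1 of them (0.657), and miR-503-5p was above 1 in all 5, from 1.19 to 1.30.

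All 6 entries with the seed AGCAGCA were below 1 under the 3 scalings by a constant. There the largest of the 6 ratios, 0.929 as deposited, moved only to 0.897, 0.954 and 0.964. These 3 are therefore no separate check of the pattern. Under quantile normalization and lowess, which can change it, 5 of the 6 were below 1, with miR-195a-5p at 1.07 and 1.01. MiR-15a-3p, the only member higher by 1.5-fold as deposited, was at 1.09 after quantile normalization and 0.971 after lowess. After 0.0573, the 25th percentile of all values, was added to both arrays as a pseudocount, miR-16-5p alone among the 13 passed the threshold (ratio 0.606), while miR-322-5p was at 0.685 and miR-497-5p at 0.687. The pseudocount exceeds the intensity of miR-15a-3p on both arrays and is close to that of miR-497-5p in EPO-MVs, and it shrinks such ratios by construction.

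**Figure D3:**
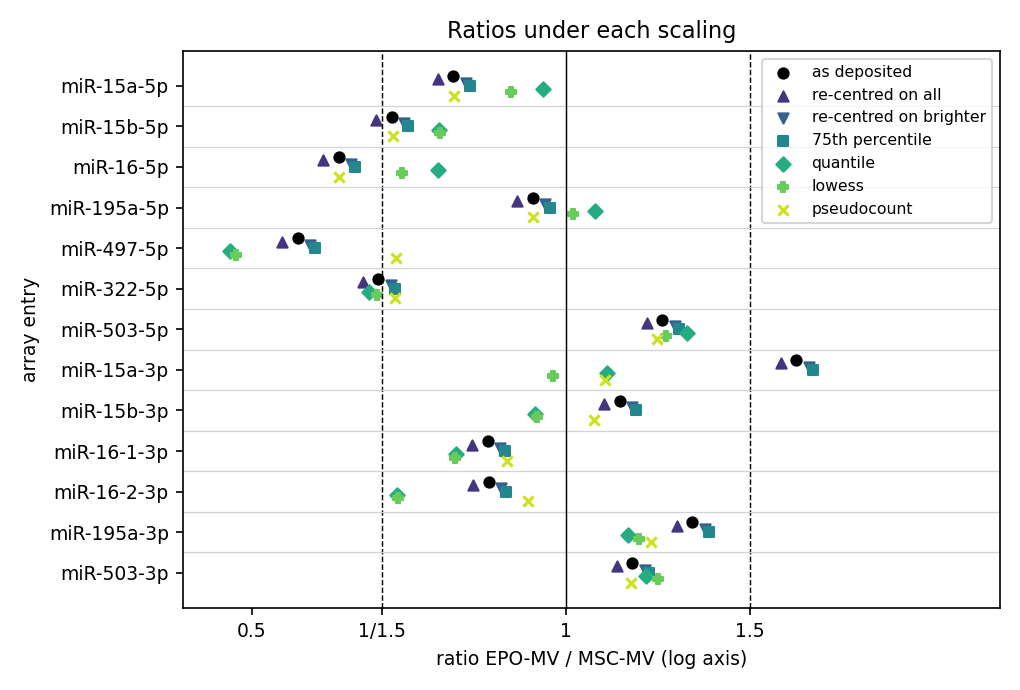
Ratio of EPO-MV to MSC-MV (log axis) of the 13 entries as deposited (black circles), under 5 other scalings and with the pseudocount (symbols in the legend), with dashed lines at 1.5-fold in both directions. MiR-503-5p lies to the right of 1 throughout, from 1.19 to 1.30 over the scalings, while the symbols of miR-16-5p lie on both sides of the lower dashed line, from 0.585 to 0.754.

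MiR-103 and miR-107, which regulate lipid and insulin pathways and are related to the family, begin with AGCAGC at their first base rather than the second, so that their seed is shifted by 1 base. They were the only 2 of the 681 sequences with AGCAGC at bases 1 to 6. MiR-103-3p had an intensity of 4.80 with EPO and 5.54 without (ratio 0.866), and miR-107-3p had 2.57 and 2.74 (ratio 0.937). Neither passed 1.5-fold.

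Lower values in EPO-MVs were not limited to the family. Of 16 measured miRNAs of a list known to restrain the cell cycle (let-7, miR-34, miR-449, miR-26, miR-24 and miR-107), 15 were below 1, 3 were lower by at least 1.5-fold and 1 was higher, with a median log2 ratio of -0.33. Of all 831 miRNAs 365 were below 1, as were 131 of the 208 in the brightest group. By at least 1.5-fold, 7.58% of all 831 were lower and 17.8% higher, and 7.69% of the brightest group were lower. Let-7f-5p, which represses RAS and cyclin D genes, had 2.72 with EPO and 4.71 without (ratio 0.578), and miR-34a-5p, a target of p53, had 5.12 and 8.14 (ratio 0.629). The 1 higher entry, miR-449b, had 8 steps against 1 step, the least that the array of MSC-MVs gave. After quantile normalization and after lowess, 14 of the 16 were below 1 and 1 was lower by at least 1.5-fold, with medians of -0.17 and -0.18.

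MiRNAs known to promote the cell cycle were taken as a further list. All 13 of such a list (miR-17, miR-20, miR-93, miR-106, miR-19, miR-25, miR-92a, miR-221, miR-222 and miR-21) were below 1, and 1 of them was lower by at least 1.5-fold, with a median log2 ratio of -0.29. That one was miR-25-3p, with 0.493 and 0.756 (ratio 0.651). Over all 831 miRNAs, 7.58% were lower by at least 1.5-fold. After quantile normalization and after lowess, 12 of the 13 were below 1 and 1 was lower by at least 1.5-fold. With the pseudocount, after re-centring on the brighter miRNAs and after scaling to the 75th percentile, 0 of the 13 passed.

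**Figure D4:**
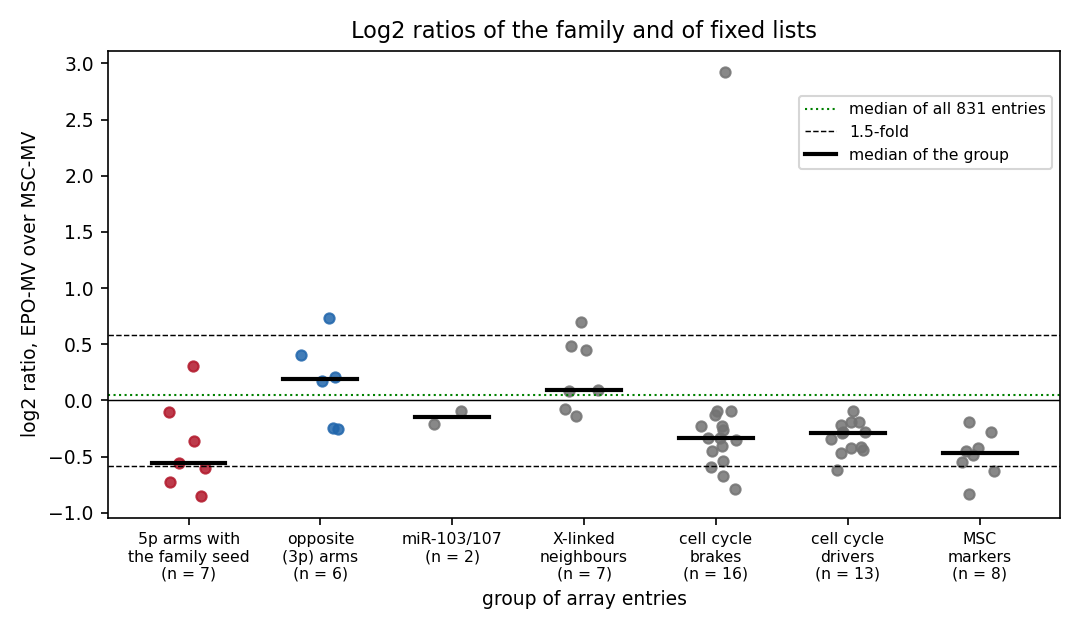
Log2 ratio of EPO-MV to MSC-MV for the family and for fixed lists, 1 point per array entry with the median as a black bar, dashed lines at 1.5-fold and the median of all 831 entries dotted (0.05). The seed-bearing 5p arms have a median of -0.56, cell cycle brakes -0.33, drivers -0.29 and MSC markers -0.47, and the X-linked neighbours 0.09.

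The labelled origin was looked at through miRNAs typical of stromal and other cells; as each probe has its own brightness, their steps do not rank the cell types. All 8 stromal miRNAs (miR-21a, miR-143, miR-145a, both arms of miR-199a, miR-214, miR-125b and miR-29a) had at least 3313 steps with EPO and 4228 without. All 8 were below 1, with ratios from 0.563 to 0.873, and 2 were lower by at least 1.5-fold. They lie in the brightest group, where 131 of 208 miRNAs were below 1 and 7.69% were lower by at least 1.5-fold. After quantile normalization 7 of the 8 were below 1 and 0 passed 1.5-fold, after lowess 7 were below 1 and 1 passed, and with the 75th percentile 1 passed. Of 6 blood miRNAs, all were on the arrays, with at least 160 steps with EPO, 87 without, and summed intensities of 67.6 and 79.9. MiR-142-3p, a marker of blood cells, had 43.98 and 48.9 (ratio 0.9002), miR-223-3p, a myeloid miRNA, had 13.6 and 20.7 (ratio 0.659), and miR-451a, which is typical of red cells, had 3.87 and 4.28 (ratio 0.902). MiR-144-3p, a neighbour of miR-451a that is also typical of red cells, had 0.340 and 0.195 (ratio 1.75), and miR-150-5p, a lymphocyte miRNA, had 0.970 and 0.716 (ratio 1.36). Of the 6 blood miRNAs 4 were below 1 and 2 above it, with 1 past 1.5-fold in each direction. Over all 831 miRNAs, 7.58% were lower and 17.8% were higher by at least 1.5-fold. After quantile normalization and after lowess 2 of the 6 blood miRNAs were below 1. In these settings, and after re-centring on the brighter miRNAs or scaling to the 75th percentile, 0 of the 6 were lower by at least 1.5-fold.

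The 4 measured epithelial markers had at most 68 steps with EPO and 43 without, the 2 endothelial ones at most 72 and 116, the 3 neural ones at most 99 and 73, and the liver miRNA miR-122-5p 8 and 7. Of the epithelial markers 3 were higher by at least 1.5-fold, with miR-200c-3p at 18 and 6 steps (ratio 2.85). Of the 4, 3 lie in the dimmest group, where 46.2% of 208 miRNAs were higher by at least 1.5-fold. After quantile normalization and after lowess 2 were higher and 1 lower, and with the pseudocount 0 passed. Both endothelial entries, miR-126a-3p (ratio 0.589) and miR-126a-5p (ratio 0.556), were lower by at least 1.5-fold, also after quantile normalization and after lowess, and 1 was with the pseudocount. MiR-126a-5p had 17 and 29 steps and lies in the dimmest group, where 31 of 208 miRNAs were lower by at least 1.5-fold. MiR-126a-3p lies in the second brightest group, where 9 of 207 (4.35%) were. Of the neural markers 1 was higher by at least 1.5-fold, miR-9-5p with 30 and 15 steps (ratio 1.90), which also lies in the dimmest group. Of the 3, 1 was higher and 1 lower after quantile normalization and after lowess, and with the pseudocount 0 passed. Of 2 muscle miRNAs, miR-206-3p reached 520 and 498 steps. The part of blood-derived RNA in the family's values was not tested.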

How the data were processed

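RNA of EPO-MVs (1 array) and MSC-MVs (1 array) was labelled with Hy3 per the labels and hybridized to the miRCURY LNA Array (v.18.0). The authors scanned it with an Axon GenePix scanner, read it with GenePix Pro 6.0, averaged replicate spots and applied median normalization whose factor came from miRNAs at or above 30 on every array. The deposited intensity is linear and above 0 for all 831 miRNAs. Background correction, the channel read and the choice of these miRNAs are not given in the sources used here. The number of arrays limits the precision.

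The ratio EPO-MV/MSC-MV was computed with no filter or pseudocount (threshold 1.5-fold) and recomputed under 11 alternatives. Values were whole multiples of the smallest step to within 1.8e-05 of a step. All 13 family entries, their seed and genomic relatives and fixed lists were named; members and lists were chosen with earlier results of these data known. Of the 831 entries, 681 matched a RefSeq mature miRNA (GRCm38.p6) by name or, for miR-497-5p, by its gene Mir497. The counting was run on values with planted changes past the threshold and no noise, which checks the arithmetic only. Python 3.11.15, pandas 2.3.3, numpy 2.4.6, statsmodels 0.14.6 and matplotlib 3.10.9 were used.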

Additional observations from a re-analysis of the deposited data

How the results depend on the processing

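No paired analysis was possible because only 1 array of each kind was analysed, and the deposited values give no measure of background. A median was taken as moved when it differed by over 0.1 on the log2 scale. Over the 13 members, 4 passed the threshold as deposited (3 seed-bearing 5p arms lower, 1 member higher). At a threshold of 2, 0 passed, with 0 seed-bearing arms lower and 0 members higher, and at 1.2, 8 passed, with 5 lower and 3 higher, as the threshold itself sets. Above the median intensity 2 of 7 members left passed, at 60 steps on both arrays 2 of 8, and after quantile normalization and after lowess 2 of 13; in these 4 settings, and at 30 steps on both arrays, 0 members were higher. With the pseudocount 1 passed, with 1 seed-bearing arm lower and 0 members higher. The median log2 ratio of the seed-bearing 5p arms, -0.56, was below 0 in every alternative that kept the 1.5-fold threshold. It moved to -0.41 with quantile normalization and -0.40 with lowess. The median of the 3p arms, 0.19, moved to 0.0157 with quantile normalization and reversed to -0.0676 with lowess and, with 2 entries left, to -0.0198 at 60 steps. Of the single ratios past the threshold, miR-15a-3p reversed, to 0.971 with lowess. Of those not past it, miR-195a-5p crossed 1 with quantile normalization and lowess (1.07 and 1.01), as did miR-15b-3p (0.934 and 0.937). Of all miRNAs tested, 25.4% passed as deposited, 10.6% at 2-fold, 55.4% at 1.2-fold, 9.16% above the median intensity, 10.8% at 30 steps, 8.64% at 60 steps, 22.9% with quantile normalization, 22.6% with lowess and 6.5% with the pseudocount. As deposited, 127 of the 208 miRNAs in the dimmest intensity group passed and 18 of the 208 in the brightest, and the filters leave out dim entries. The cause of the other changes was not tested.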
